A study of Homo sapiens with 36 samples.

Results

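The tubulin genes examined here were the 10 Ensembl gene identifiers listed for TUBA1A, TUBA1B, TUBA1C, TUBA4A, TUBB, TUBB2A, TUBB2B, TUBB3, TUBB4B and TUBB6. The rule names them by identifier, and the list was drawn up with earlier results of these data known. A row was found for 9 of the 10, among 18919 gene rows in all, and TUBB3 was not analysed here. The 9 comprised 4 alpha tubulins and 5 beta tubulins, and no filter on low values was applied, so all 9 entered every test.

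The data were log2 expression levels from 36 Affymetrix arrays of HepG2 cells, an established human line derived from a liver carcinoma. Cells near confluence received fresh medium with acetaminophen (APAP), a painkiller whose oxidised metabolite injures liver cells, at 10 mM or 0.5 mM, or with 0.5% DMSO as the solvent control. Each of the 3 treatments was sampled at 12, 24, 48 and 72 h with 3 arrays, which the submitters describe as biological replicates of an otherwise unmodified line. The labels do not settle whether the APAP medium also held DMSO, and their RNA protocol speaks of 24 h for every sample, so the times rest on the sample titles and time labels. Nothing else shows that the 3 arrays of a group came from separate cultures, so the p-values measure the spread between these arrays. Each array measured the RNA of a whole culture, so fewer cells of one state and less RNA per cell cannot be told apart. HepG2 is a tumour line, which limits it as a model of liver tissue, and its marker genes were not checked here because the identifiers could not be paired with names.

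Arrays within a group correlated at 0.991 or more over all gene rows, and no pair of arrays exceeded 0.998. The labelling spike-in dap was weak on 6 arrays, with mean log2 levels of 2.76 to 6.44 against 11.34 to 13.20 on the others, and 4 of these 6 were at 10 mM. The 3' minus 5' difference of the actin control exceeded 3 on 2 arrays at 0.5 mM and ran from 1.49 to 2.45 on the rest. The DMSO 48 h replicate 1 array, which also had a weak spike-in, was the lowest of its group for 8 of the 9 tubulin genes. Many results that rest on it, though not all, are given with and without it.

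Alpha and beta tubulin pair as a heterodimer and polymerise into microtubules, the hollow filaments that form the mitotic spindle and carry vesicles through the cell. In hepatocytes they guide the export of secreted proteins and bile components. Each subunit comes from a family of genes whose proteins are nearly identical except at their tails. Cells also adjust tubulin mRNA to the pool of free subunits: when unpolymerised tubulin accumulates, the mRNAs being translated into tubulin are degraded, a loop known as tubulin autoregulation. Because TUBA1A, TUBA1B and TUBA1C are close copies of one another, as are TUBB2A and TUBB2B, their probes can share signal, and values of single genes within these groups are uncertain to that extent.

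The members lie on several chromosomes (GRCh38.p14 in RefSeq). TUBA1B at chr12:49127782-49131395, TUBA1A at chr12:49184795-49189080 and TUBA1C at chr12:49227926-49274600 are neighbours on chromosome 12, and TUBA4A lies at chr2:219249710-219254740. TUBB2A at chr6:3153666-3157544 and TUBB2B at chr6:3224277-3227653 lie close together on chromosome 6, where TUBB also sits, at chr6:30720352-30725422. TUBB4B lies at chr9:137241287-137243707 and TUBB6 at chr18:12307669-12329826. In the table the alpha tubulin rows are ENSG00000167552_at (TUBA1A), ENSG00000123416_at (TUBA1B), ENSG00000167553_at (TUBA1C) and ENSG00000127824_at (TUBA4A), and the beta tubulin rows ENSG00000196230_at (TUBB), ENSG00000137267_at (TUBB2A), ENSG00000137285_at (TUBB2B), ENSG00000188229_at (TUBB4B) and ENSG00000176014_at (TUBB6).

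TUBB6, TUBB2A and TUBB2B were higher in 10 mM APAP than in DMSO at all 4 times, although TUBB2A at 48 h did not pass the test without the DMSO 48 h replicate 1 array. TUBB and TUBA1B at 10 mM passed the test as higher than DMSO at 48 and 72 h and not at 12 or 24 h. TUBB4B, TUBA1A and TUBA4A did so too. Promoters of 5 members are shown: TUBB6, TUBB2A and TUBB2B, and TUBB with TUBA1B as the alpha and beta pair most alike in profile, described below. Each is the 250 bases before the annotated gene start, read 5′ to 3′ on the gene's own strand from RefSeq (GRCh38.p14), and capitals mark the CCAAT box, the letters TATAAA of a TATA box and the letters GGGCGG of a GC box, on either strand. All 9 members matched an entry of the promoter table. The windows are chr18:12307419-12307668 (plus strand) for TUBB6, chr6:3157545-3157794 (minus) for TUBB2A, chr6:3227654-3227903 (minus) for TUBB2B, chr6:30720102-30720351 (plus) for TUBB and chr12:49131396-49131645 (minus) for TUBA1B.
TUBB6: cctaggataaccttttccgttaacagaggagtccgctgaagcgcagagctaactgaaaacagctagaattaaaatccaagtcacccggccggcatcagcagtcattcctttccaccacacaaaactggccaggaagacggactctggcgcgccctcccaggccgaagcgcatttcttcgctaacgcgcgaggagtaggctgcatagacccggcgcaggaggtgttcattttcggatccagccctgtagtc
TUBB2A: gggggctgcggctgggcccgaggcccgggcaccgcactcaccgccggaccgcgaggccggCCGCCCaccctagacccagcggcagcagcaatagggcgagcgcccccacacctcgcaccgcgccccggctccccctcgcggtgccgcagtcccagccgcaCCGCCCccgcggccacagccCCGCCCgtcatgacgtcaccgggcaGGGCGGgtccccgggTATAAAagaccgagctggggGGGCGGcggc
TUBB2B: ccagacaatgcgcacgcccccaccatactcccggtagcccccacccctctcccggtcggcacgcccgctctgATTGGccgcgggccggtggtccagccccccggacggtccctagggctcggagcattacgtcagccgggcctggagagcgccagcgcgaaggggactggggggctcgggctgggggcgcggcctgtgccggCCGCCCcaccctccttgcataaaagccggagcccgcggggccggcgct
TUBB: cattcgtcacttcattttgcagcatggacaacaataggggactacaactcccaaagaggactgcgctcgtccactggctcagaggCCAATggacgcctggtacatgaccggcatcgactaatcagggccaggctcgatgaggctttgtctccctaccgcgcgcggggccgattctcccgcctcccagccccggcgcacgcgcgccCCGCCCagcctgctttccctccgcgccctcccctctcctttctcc
TUBA1B: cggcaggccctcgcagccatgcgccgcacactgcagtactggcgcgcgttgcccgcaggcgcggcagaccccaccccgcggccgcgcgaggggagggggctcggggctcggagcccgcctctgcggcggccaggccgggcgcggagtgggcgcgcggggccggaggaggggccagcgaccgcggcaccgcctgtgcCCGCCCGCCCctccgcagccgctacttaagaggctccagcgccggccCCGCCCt

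The upstream windows of these members were not alike in the short motifs searched. No capital stands in the TUBB6 window, while TUBB2A has TATAAA starting 30 bases before the gene start and 5 matches of GGGCGG. TUBB has CCAAT 165 bases before its start, and TUBB2B has it on the other strand 178 bases before. TUBA1B has 3 matches of GGGCGG, of which those at 54 and 50 bases before the start overlap each other. Over all 9 members, CCAAT was found in 5 (TUBA1A, TUBA1C, TUBB, TUBB2B and TUBB4B) against 32% of 35116 RefSeq windows of the same length. GGGCGG was found in 5 of 9 (TUBA1B, TUBA4A, TUBB, TUBB2A and TUBB2B) against 42.6%, and TATAAA in 1 of 9 against 10.7%. TTTGAA was found in 2 (TUBA1C and TUBB4B) against 13.3%, and TGACTCA and TGACNNNGC in none of the 9, against 4.2% and 10.9%. All 6 motifs were searched on both strands with overlaps counted, and a match is a description of letters only.

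TUBB6, a beta tubulin of many tissues whose overproduction has been reported to disrupt microtubules in cultured cells, showed the largest difference between 10 mM APAP and DMSO of the 9 genes at 12, 24 and 48 h. In DMSO its log2 levels were 8.03, 8.37 and 8.04 (12 h), 7.19, 7.65 and 7.33 (24 h), 6.88, 7.06 and 6.72 (48 h), and 7.45, 7.83 and 7.80 (72 h). In 0.5 mM APAP they were 8.50, 8.70 and 8.70 (12 h), 7.89, 7.79 and 7.90 (24 h), 6.33, 6.93 and 6.67 (48 h), and 7.21, 7.37 and 7.38 (72 h). In 10 mM APAP they were 9.39, 9.83 and 10.12 (12 h), 9.69, 9.92 and 9.52 (24 h), 9.62, 9.98 and 9.57 (48 h), and 10.20, 9.52 and 9.84 (72 h). Every 10 mM array stood above every DMSO and 0.5 mM array. TUBB6 was 3.11-fold higher than in DMSO at 12 h, 5.01-fold at 24 h, 7.15-fold at 48 h and 4.46-fold at 72 h, which is 1.63, 2.32, 2.84 and 2.16 on the log2 scale (SE 0.18 each). The adjusted p values were 1.6e-08, 1.2e-11, 1.1e-13 and 2.2e-11 (limma, Benjamini-Hochberg over all gene rows). Ordered by mean level, the 4 groups at 10 mM lay within 9.71 to 9.85 and overlapped one another, and the next group, 0.5 mM at 12 h with a mean of 8.63, did not overlap them. The lowest group was 0.5 mM at 48 h, with a mean of 6.64.

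TUBB2A and TUBB2B, beta tubulins best known from neurons, were also higher in 10 mM APAP at every time. TUBB2A log2 levels in DMSO were 10.64, 10.70 and 10.50 (12 h), 10.09, 10.61 and 10.35 (24 h), 10.50, 11.21 and 11.07 (48 h), and 11.10, 11.13 and 11.17 (72 h). In 10 mM APAP they were 11.45, 11.61 and 11.39 (12 h), 11.10, 10.97 and 11.06 (24 h), 11.31, 11.26 and 11.39 (48 h), and 11.73, 11.46 and 11.64 (72 h). The TUBB2A groups did not overlap at any time, with the narrowest gap at 48 h. TUBB2A was 1.83-fold higher at 12 h (adjusted p = 7.4e-06), 1.62-fold at 24 h (0.00014), 1.31-fold at 48 h (0.026) and 1.39-fold at 72 h (0.0061), with an SE of 0.13 on the log2 scale. Without the DMSO 48 h replicate 1 array the TUBB2A difference at 48 h was 0.17 on the log2 scale with an adjusted p of 0.36, and without the 6 weak spike-in arrays it was 0.18 (0.38).

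For TUBB2B the DMSO levels were 4.51, 4.96 and 4.71 (12 h), 4.47, 4.82 and 4.67 (24 h), 5.17, 5.84 and 5.23 (48 h), and 6.03, 6.17 and 5.96 (72 h). The 10 mM levels were 5.95, 6.00 and 5.46 (12 h), 5.85, 6.07 and 6.04 (24 h), 6.72, 5.93 and 7.14 (48 h), and 7.0, 6.73 and 7.07 (72 h). The TUBB2B values of 3.69, 4.49 and 4.71 in 0.5 mM APAP at 24 h came near the array medians of 3.32 to 3.46. Here too the 10 mM and DMSO groups were separate at each time, although both treatments drifted upwards. TUBB2B was 2.11-fold higher at 12 h (adjusted p = 0.00081), 2.52-fold at 24 h (5.1e-05), 2.27-fold at 48 h (0.00021) and 1.84-fold at 72 h (0.0041), with an SE of 0.24 on the log2 scale. The dose effect of TUBB2B was not found to differ between times (adjusted p = 0.8, F test of the interaction), and that of TUBB2A was not either (0.21). With the DMSO 48 h replicate 1 array left out, the adjusted p for TUBB2A was 0.01, and without all 6 weak spike-in arrays it was 0.024.

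**Figure D1:**
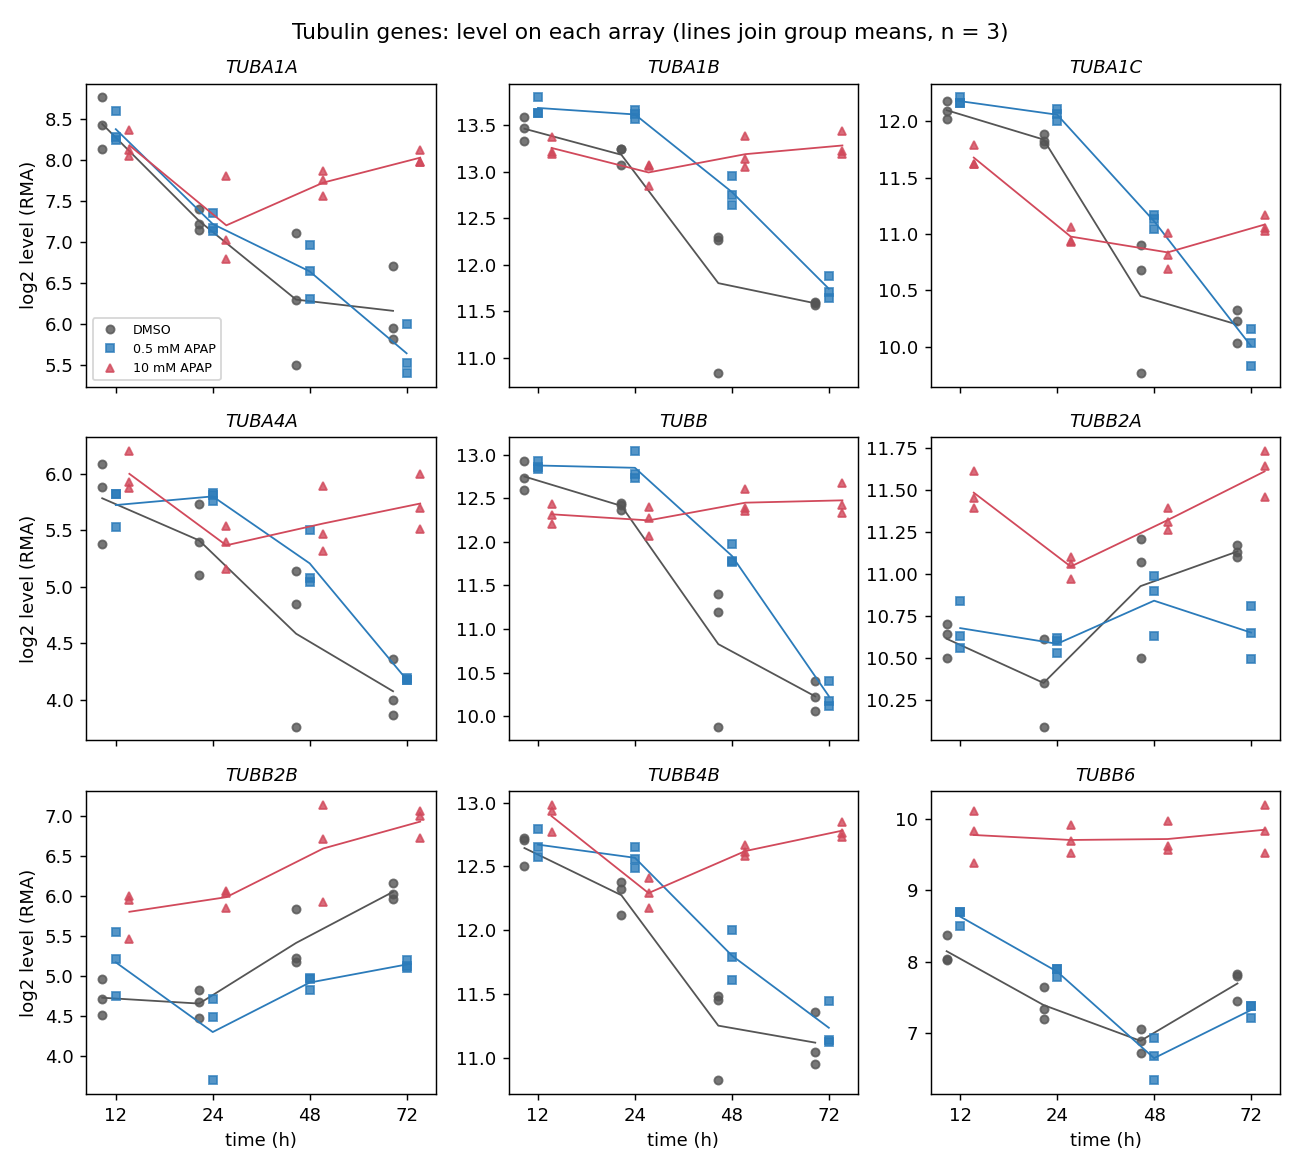
Log2 levels (RMA) of the 9 tubulin genes on each array against time in hours, with points for arrays, offset sideways by treatment, and lines joining group means (n = 3). TUBB6 at 10 mM stays between 9.39 and 10.20, while TUBB, TUBB4B and the alpha tubulins decline in DMSO and 0.5 mM APAP from 12 to 72 h.

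TUBB, the beta tubulin found in nearly all cells, followed another course: it declined with time in DMSO and stayed near its 12 h level at 10 mM. Its DMSO levels were 12.73, 12.93 and 12.59 (12 h), 12.45, 12.42 and 12.37 (24 h), 9.88, 11.20 and 11.40 (48 h), and 10.40, 10.06 and 10.22 (72 h). Its 0.5 mM levels were 12.86, 12.93 and 12.84 (12 h), 13.04, 12.73 and 12.78 (24 h), 11.77, 11.78 and 11.97 (48 h), and 10.40, 10.12 and 10.17 (72 h). Its 10 mM levels were 12.43, 12.21 and 12.31 (12 h), 12.40, 12.27 and 12.07 (24 h), 12.39, 12.61 and 12.35 (48 h), and 12.68, 12.33 and 12.42 (72 h). The 10 mM arrays lay below all DMSO arrays at 12 h, overlapped them at 24 h, and lay above all of them at 48 and 72 h. TUBB differed from DMSO by -0.44 at 12 h (adjusted p = 0.13) and -0.16 at 24 h (0.66) on the log2 scale, and without the weak spike-in arrays the 12 h difference was -0.50 (0.0052). Without the DMSO 48 h replicate 1 array alone, which enters through the shared spread, the 12 h difference stayed at -0.44 and passed (0.0038). It also passed with 12 h fitted alone (0.0049) and with array weights (0.021). TUBB was then 3.09-fold higher at 48 h (2.4e-07) and 4.74-fold higher at 72 h (3.9e-10), with a log2 SE of 0.21. In the order of TUBB group means, 0.5 mM at 12 h came first at 12.87, the 10 mM groups stood in the middle, and 0.5 mM and DMSO at 72 h came last, both at 10.23. Of the 11 neighbouring pairs in that order, 9 overlapped.

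TUBA1B, the alpha tubulin of most cell types, moved much like TUBB. In DMSO it read 13.47, 13.59 and 13.33 (12 h), 13.07, 13.24 and 13.24 (24 h), 10.84, 12.27 and 12.30 (48 h), and 11.59, 11.57 and 11.60 (72 h). In 10 mM APAP it read 13.21, 13.19 and 13.37 (12 h), 13.07, 13.06 and 12.85 (24 h), 13.14, 13.38 and 13.05 (48 h), and 13.44, 13.19 and 13.22 (72 h). The treatments overlapped at 12 and 24 h and were separate at 48 and 72 h. TUBA1B differed by -0.21 at 12 h (adjusted p = 0.54) and -0.19 at 24 h (0.59), and was 2.61-fold higher at 48 h (2.1e-06) and 3.24-fold higher at 72 h (5.4e-08), with a log2 SE of 0.20. At 48 h the log2 difference of 1.39 became 0.91 without the DMSO 48 h replicate 1 array (adjusted p = 1.1e-07), and that of TUBB went from 1.63 to 1.15 (2.7e-08).

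TUBB4B, a broadly expressed beta tubulin that also builds cilia, TUBA1A, an alpha tubulin needed in developing neurons, and TUBA4A, an alpha tubulin whose gene does not encode the usual terminal tyrosine, were likewise higher at the later times. TUBB4B ran from 10.82 to 11.48 in DMSO at 48 h and from 10.95 to 11.36 at 72 h, against 12.58 to 12.67 and 12.73 to 12.85 in 10 mM APAP. It was 2.59-fold higher at 48 h (adjusted p = 1.5e-09) and 3.17-fold higher at 72 h (1.9e-11). TUBA1A ran from 5.50 to 7.11 and from 5.82 to 6.71 in DMSO at these times, against 7.56 to 7.86 and 7.98 to 8.12 at 10 mM. Neither gene's groups overlapped at 48 or 72 h. TUBA1A was 2.68-fold higher at 48 h (0.00011) and 3.64-fold at 72 h (2e-06). TUBA4A ran from 3.76 to 5.14 and from 3.86 to 4.36 in DMSO, against 5.32 to 5.89 and 5.51 to 6.00 at 10 mM. Its DMSO values at 72 h came near the array medians of 3.32 to 3.46, and no detection call was used here. TUBA4A was 1.97-fold higher at 48 h (0.0013) and 3.16-fold at 72 h (9e-07). None of these genes passed the test at 12 or 24 h, where TUBB4B differed by 0.25 and 0.02, TUBA1A by -0.26 and -0.05, and TUBA4A by 0.22 and -0.05 on the log2 scale. Without the DMSO 48 h replicate 1 array the log2 differences at 48 h were 1.16 for TUBB4B, 1.02 for TUBA1A and 0.57 for TUBA4A, instead of 1.37, 1.42 and 0.98. The adjusted p values were then 1e-08, 0.0029 and 0.032.

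TUBA1C, another widely expressed alpha tubulin, was lower than DMSO early and higher late. Its DMSO levels were 12.09, 12.18 and 12.02 (12 h), 11.89, 11.82 and 11.80 (24 h), 9.77, 10.90 and 10.68 (48 h), and 10.33, 10.03 and 10.23 (72 h). Its 10 mM levels were 11.79, 11.62 and 11.62 (12 h), 10.94, 11.06 and 10.93 (24 h), 10.69, 11.01 and 10.81 (48 h), and 11.17, 11.03 and 11.05 (72 h). The 10 mM arrays were all below DMSO at 12 and 24 h, overlapped it at 48 h and were all above it at 72 h. TUBA1C was 1.34-fold lower at 12 h (adjusted p = 0.043), 1.81-fold lower at 24 h (5.7e-05), and 1.85-fold higher at 72 h (2.7e-05). At 48 h the log2 difference was 0.39 with an adjusted p of 0.057, which was 0.025 with the replicate number as a block, and the difference was 0.05 without the DMSO 48 h replicate 1 array. The call at 12 h was lost in a second quantile normalization (adjusted p = 0.087) and without any of 5 of the 6 arrays compared (0.058 to 0.14). Averaged over the times TUBA1C was the 1 member that did not pass the test at 10 mM.

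**Figure D2:**
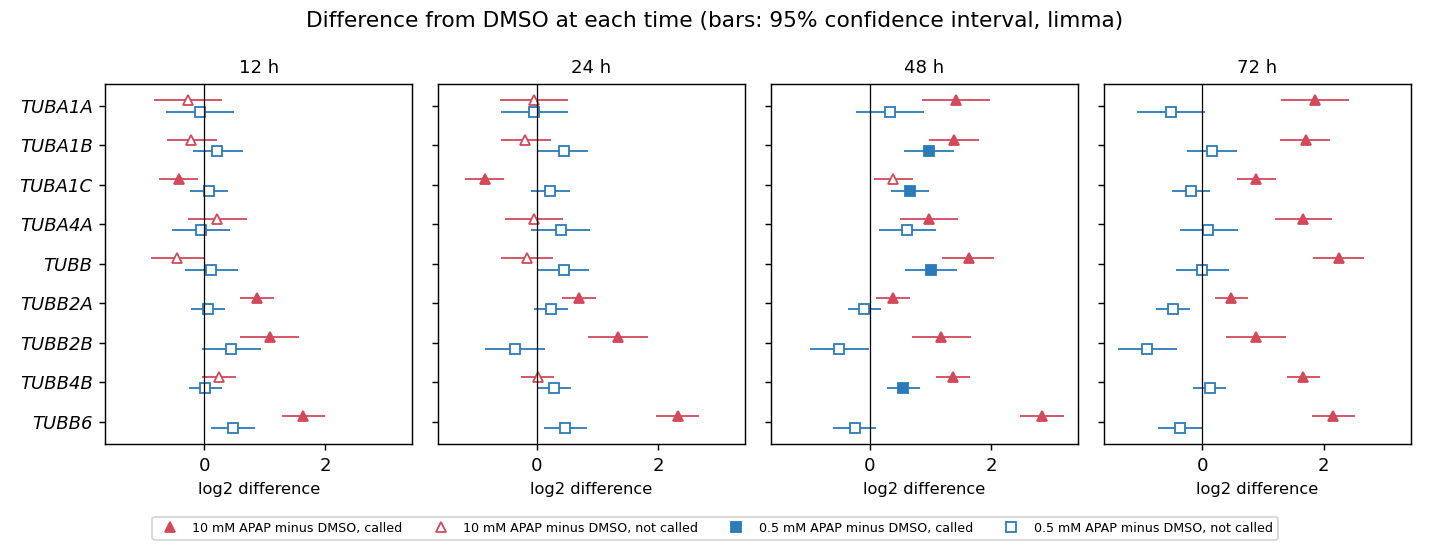
Log2 difference from DMSO of each tubulin gene at 12, 24, 48 and 72 h, for 10 mM APAP (triangles) and 0.5 mM APAP (squares), with 95% confidence intervals from limma; filled symbols have an adjusted p under 0.05. At 10 mM the filled points go from 4 genes at 12 h to all 9 at 72 h.

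Counted over the family, 10 mM APAP called 3 members higher and 1 lower than DMSO at 12 h, against 14.2% of all gene rows called higher and 12.4% lower. Without the DMSO 48 h replicate 1 array the 12 h count was 3 higher and 2 lower, with TUBB joining TUBA1C. With all arrays the 24 h count was also 3 higher and 1 lower, against 15.3% and 13.7%. At 48 h 8 were higher and none lower, against 16.3% and 14.9%, and 7 were higher without the DMSO 48 h replicate 1 array. At 72 h all 9 were higher, against 17% of all rows higher and 16.5% lower. The median log2 difference of the 9 members was 0.22, -0.05, 1.37 and 1.66 at the 4 times, beside 0.01, -0.01, 0.01 and -0.01 over all rows. The 48 h median includes the DMSO 48 h replicate 1 array. Without that array the 48 h difference was smaller for all 9 members, from 0.05 (TUBA1C) to 2.83 (TUBB6) instead of 0.39 to 2.84. Groups that did not overlap were seen for 6, 4, 8 and 9 members, against 41.1%, 40.3%, 36% and 42.7% of all rows. Averaged over times 8 of 9 members were higher, against 23.8% of all rows. The difference between 10 mM APAP and DMSO itself differed between times for 7 of 9 members, against 21.3% of all rows.

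The level of each tubulin over time within a treatment gives the courses behind these differences. In DMSO, TUBB fell by 2.53 on the log2 scale between 12 and 72 h, TUBA1A fell by 2.28, TUBA1C fell by 1.90, TUBA1B fell by 1.88, TUBA4A fell by 1.71 and TUBB4B fell by 1.53. TUBB2B, by contrast, went up by 1.33 and TUBB2A by 0.53. TUBB6 fell by 1.26 between 12 and 48 h and was 0.46 below its 12 h level at 72 h. An F test of the DMSO means over time passed for 9 of 9 members, against 30.7% of all rows. In 0.5 mM APAP it passed for 8 of 9 (33.9% of all rows), with changes from 12 to 72 h of -2.64 for TUBB, -2.73 for TUBA1A, -2.17 for TUBA1C and -1.95 for TUBA1B. The exception was TUBB2A (adjusted p = 0.45). In 10 mM APAP the test passed for 5 of 9 (25.3% of all rows), namely TUBA1A, TUBA1C, TUBB2A, TUBB2B and TUBB4B. No member there was more than 1 log2 unit lower at 72 than at 12 h, against 6 in DMSO and 7 in 0.5 mM APAP. The share of all rows falling that far was not computed, so whether these counts are particular to tubulins was not tested. Without the weak spike-in arrays TUBA1A (adjusted p = 0.11) and TUBB4B (0.051) no longer passed at 10 mM. TUBA1A was also lost there without the 12 h replicate 2 (0.053) or 3 (0.079) array, or the 24 h replicate 1 (0.2) or 2 (0.13) array. In 0.5 mM APAP TUBB2B was lost without the 24 h replicate 1 array (0.21). The changes of TUBB, TUBA1B and TUBB6 at 10 mM from 12 to 72 h were 0.16, 0.02 and 0.07, and their F tests gave adjusted p values of 0.81, 0.69 and 0.92. The time of exposure and anything else that differed between the time points cannot be told apart in this design.

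**Figure D3:**
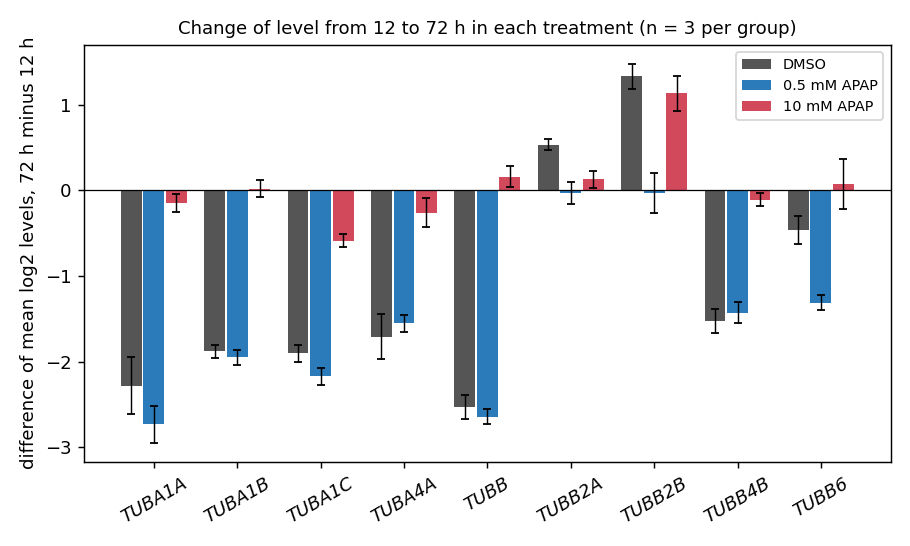
Difference of mean log2 levels, 72 h minus 12 h, for each tubulin gene in DMSO, 0.5 mM and 10 mM APAP (n = 3 per group); error bars are the standard error of the difference of the group means. The bars of TUBB reach -2.53 in DMSO and -2.64 in 0.5 mM APAP but 0.16 in 10 mM APAP, and TUBB2B has 1.33, -0.03 and 1.13.

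At 0.5 mM, 48 h was the 1 time at which any tubulin passed the test against DMSO. There TUBB was 2.02-fold higher (adjusted p = 0.0038), TUBA1B 1.97-fold (0.004), TUBA1C 1.59-fold (0.011) and TUBB4B 1.47-fold (0.015). These 4 of 9 compare with 2.6% of all rows called higher. TUBB2B (-0.50 on the log2 scale, adjusted p = 0.34), TUBB6 (-0.25, 0.6) and TUBB2A (-0.09, 0.88) were below DMSO and did not pass. At an unadjusted p under 0.05 there were 6 members and 2729 rows (14.4%) at 48 h. Of all rows, 492 were called higher and 160 lower, which became 418 and 224 with arrays centred on their medians and 440 and 264 after a second quantile normalization. The 0.5 mM levels of TUBA1B at 48 h were 12.75, 12.96 and 12.64, above the 10.84, 12.27 and 12.30 in DMSO. Both sets of arrays were separate for TUBA1B, and its log2 difference was 0.98. Without the DMSO 48 h replicate 1 array the differences were 0.50 for TUBA1B (0.014) and 0.54 for TUBB (0.028), while TUBA1C at 0.32 (0.16) and TUBB4B at 0.34 (0.28) no longer passed. TUBA1C and TUBB4B were also lost without the weak spike-in arrays (0.15 and 0.33) and without the 2 arrays of high actin difference (0.059 and 0.11). When the 48 h arrays were fitted alone none of the 4 passed (adjusted p 0.29 to 0.38).

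At 12 and 24 h no member passed the limma test at 0.5 mM, against 0.00529% and 0.0159% of all rows. At an unadjusted p under 0.05 there were 1 member and 865 rows (4.57%) at 12 h, and 4 members and 1168 rows (6.17%) at 24 h. At 24 h the arrays of 6 members (TUBA1B, TUBA1C, TUBA4A, TUBB, TUBB4B and TUBB6) were nevertheless all above the DMSO arrays, a separation upwards seen in 6.58% of all rows. The log2 differences of these 6 ran from 0.22 for TUBA1C to 0.47 for TUBB6. At 72 h no member passed either, against 0.761% of all rows, and 3 members had an unadjusted p under 0.05, as did 1870 rows (9.88%). These were TUBB2B at -0.91 (adjusted p = 0.068), TUBB2A at -0.49 (0.086) and TUBB6 at -0.37 (0.48), each with all 0.5 mM arrays below the DMSO arrays, a separation downwards seen in 5.71% of all rows. TUBB2B then read 5.20, 5.10 and 5.13 at 0.5 mM against 6.03, 6.17 and 5.96 in DMSO. With the replicate number as a block TUBB2A passed at 72 h (adjusted p = 0.029). TUBB at 72 h differed by 0.00 with a 95% confidence interval of -0.43 to 0.43. Averaged over times TUBA1B (0.45 on the log2 scale), TUBB (0.39) and TUBB4B (0.25) were higher at 0.5 mM, against 4.14% of all rows, with adjusted p values of 0.0052, 0.02 and 0.024, and TUBB4B did not pass without the weak spike-in arrays (0.054) or those of high actin difference (0.11). Without the DMSO 48 h replicate 1 array the averages were 0.33 for TUBA1B (adjusted p = 6.7e-05), 0.27 for TUBB (0.004) and 0.19 for TUBB4B (0.044). With all arrays the split of all rows for the average over times was 784 higher and 391 lower, and 643 and 535 with median centring. The 0.5 mM difference from DMSO was not found to vary between times for any member (0 of 9, adjusted p 0.28 to 0.98, against 0.0846% of all rows). At an unadjusted p under 0.05 there were 7 members and 1165 rows (6.16%).

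Set directly against each other, the doses differed for 3 of the 9 members at 12 h and for 6 at 24 h, in both directions, and TUBA1A, TUBA4A and TUBB4B passed at neither time. At 12 h TUBB6 (1.15 on the log2 scale, adjusted p = 7e-06) and TUBB2A (0.80, 2.8e-05) were higher at 10 mM than at 0.5 mM, against 12.4% of all rows, and TUBA1C was lower (-0.50, 0.016), against 11.9%. The TUBA1C call was lost without the 10 mM 12 h replicate 2 (0.057) or 3 (0.055) array. TUBB2B differed by 0.63 (0.055), which passed with 12 h fitted alone (0.032) and with array weights (0.0031). It did not pass without the DMSO 48 h replicate 1 array (0.052). TUBB differed by -0.56 (0.051), which passed with the replicate number as a block (0.022) and without the weak spike-in arrays (-0.62, 0.00083), as did TUBA1B without those arrays (-0.41, 0.0075). Without the DMSO 48 h replicate 1 array alone, which enters through the shared spread, TUBB (0.00037) and TUBA1B (0.0011) also passed. At 24 h 3 members were higher and 3 lower, against 14.8% and 12.8%. The higher ones were TUBB6 (1.85), TUBB2B (1.69) and TUBB2A (0.46), and the lower ones TUBA1C (-1.08, adjusted p = 2.3e-06), TUBA1B (-0.62, 0.019) and TUBB (-0.60, 0.03). The TUBA1B call was lost without the 10 mM 24 h replicate 3 array (0.081) or the 0.5 mM 24 h replicate 1 array (0.057). The TUBB call was lost without either of these (0.12 and 0.13) or without the 10 mM 24 h replicate 2 array (0.061). At 24 h TUBA1B read 13.66, 13.57 and 13.62 at 0.5 mM against 13.07, 13.06 and 12.85 at 10 mM, so that the doses did not overlap.

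At 48 h 6 members were higher at 10 mM than at 0.5 mM and none lower, against 14.3% of all rows in each direction. Without the DMSO 48 h replicate 1 array 7 were higher, with TUBA1B at 0.41 (adjusted p = 0.0015), and TUBA1C was lower (-0.28, 0.021). TUBB6 was 8.48-fold higher, and the others were TUBB2B (1.68 on the log2 scale), TUBA1A (1.08), TUBB4B (0.82), TUBB (0.61, adjusted p = 0.026) and TUBB2A (0.47, 0.0071). The TUBB call was lost with that time fitted alone (0.23), without the high-actin arrays (0.077), and without the 10 mM replicate 2 (0.1) or the 0.5 mM replicate 1 (0.077) or 2 (0.073) array at 48 h. The TUBB2A call was lost with that time fitted alone (0.085), under a minimum of 1.5-fold, and without the 0.5 mM 48 h replicate 1 array (0.065). At 72 h all 9 were higher, against 16.3%. The folds there were 5.77 for TUBB6, 5.2 for TUBA1A, 4.74 for TUBB and 3.46 for TUBB2B, and from 1.95 (TUBB2A) to 2.95 (TUBA4A) for the other 5. Averaged over times 7 were higher (22% of all rows) and TUBA1C was lower by 0.20 on the log2 scale (20.9%, adjusted p = 0.041), and TUBA1B did not pass (0.22, 0.078). The TUBA1C call was lost in 20 of 45 alternatives, of which 17 left out 1 array (0.051 to 0.078), and TUBA1B passed without the DMSO 48 h replicate 1 array (0.00029). The comparisons of both doses with DMSO share the DMSO arrays, and those between doses share arrays with them.

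**Figure D4:**
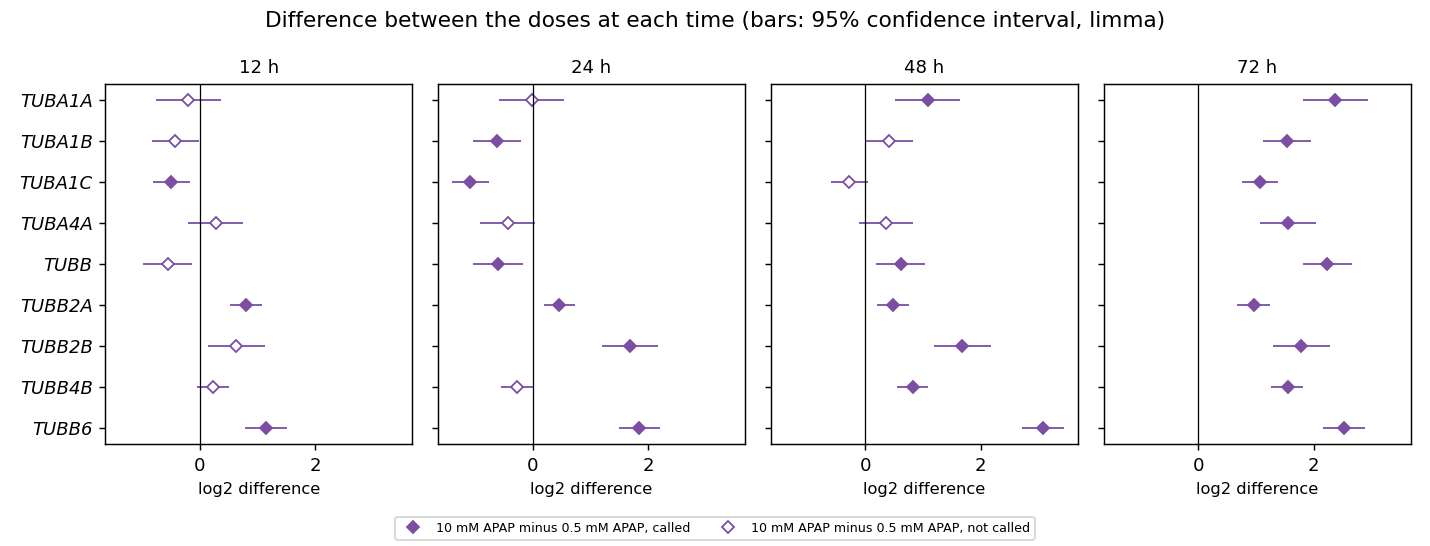
Log2 difference between 10 mM and 0.5 mM APAP for each tubulin gene at 12, 24, 48 and 72 h, with 95% confidence intervals from limma; filled diamonds have an adjusted p under 0.05. At 24 h TUBA1B, TUBA1C and TUBB lie left of 0 and TUBB2A, TUBB2B and TUBB6 right of it, and at 72 h all 9 lie right of 0.

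Likeness between profiles was described by Pearson's r over the 12 group means, with no test, since these points share arrays and normalization. TUBA1B and TUBB had an r of 0.99, and each was second among the 18918 other rows in likeness to the other. The row most like both was ENSG00000142945, with r of 0.991 to TUBA1B and 0.99 to TUBB, which could not be paired with a name here. TUBA4A and TUBB4B had an r of 0.97. TUBB2A and TUBB2B were like each other (0.90), although TUBB2B ranked only 55 in likeness to TUBB2A, and TUBB2A 93 to TUBB2B. Both were unlike TUBB (-0.03 and -0.12) and TUBB4B (0.21 and 0.10). To the alpha tubulins their r ran from -0.32 and -0.46 (TUBA1C) to 0.21 and 0.13 (TUBA1A). TUBB6 lay between, with 0.71 to TUBB4B, 0.68 to TUBB2A and 0.68 to TUBB2B. Of the 27 places for the 3 rows most like each member, other members held 2, and 23 different rows the rest.

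**Figure D5:**
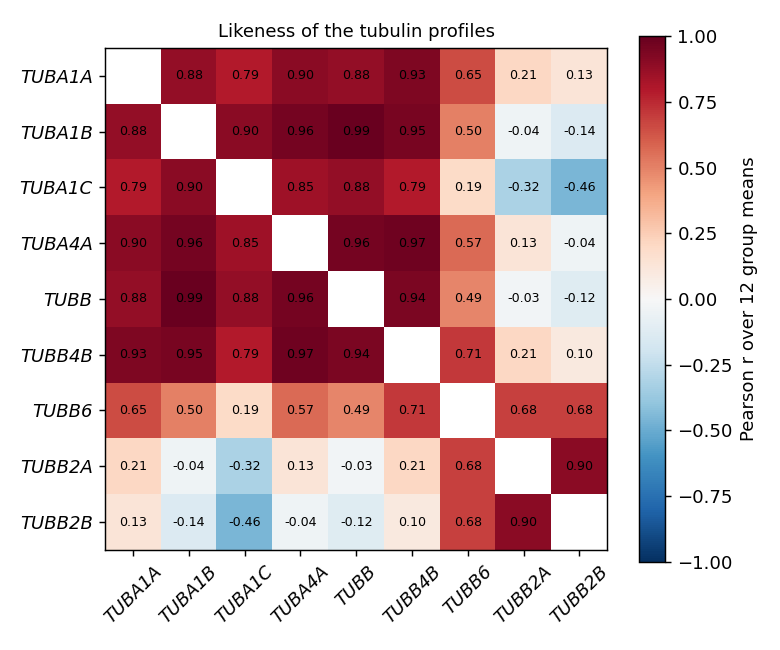
Pearson's r of the 12 group means for each pair of tubulin genes, from -1 (blue) to 1 (red), with the value printed in each square. TUBA1A, TUBA1B, TUBA1C, TUBA4A, TUBB and TUBB4B form a block of high values, and TUBB2A and TUBB2B a pair at 0.90.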

How the data were processed

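Per the labels' protocols, HepG2 RNA of high integrity was labelled with a 3' IVT kit. The authors deposited log2 expression levels made with RMA, per the submitters' processing notes. Its version, probe sets and annotation were not given in the sources used here. RMA makes the distributions of arrays alike, so a shift of most genes one way would not be seen, and precision is limited by the number of arrays. The table held 18919 gene rows and 62 control rows, named by Ensembl identifier, with no missing value.

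Titles and time labels gave the groups. With limma 3.58.1 (R 4.3.3), 1 linear model of 12 group means took in the 36 arrays (24 residual degrees of freedom), p-values were adjusted by Benjamini-Hochberg over all gene rows, and an adjusted p under 0.05 was called. Each dose was compared with DMSO and with the other dose at each time and averaged over times, F tests were used for differences between times, and the scripts were tested on simulated data. Fold changes are 2 to the power of the log2 difference.

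Members' symbols came with the list of identifiers. The members and lists were chosen with earlier results of these data known. All members were named, and of other rows the 3 most like each member by group means, of which at most 2 unnamed ones were to be printed. Lists of microtubule genes and of cell markers were planned, but no identifier of the table (0) was found in the reference tables, so they were not analysed here. Replicate numbers come from the titles. Same-numbered arrays deviated together in 30 of 36 pairs over 0.1 (correlation of deviations, -0.03 to 0.35), and all 3 pairs did so in 7 of 12 comparisons. The main fit did not use this pairing, and the replicate number entered only as a block in an alternative fit. Alternatives were fitting each time alone, the replicate block, median centring, a second quantile normalization, rows above the median mean level, a trended robust prior, array weights, a minimum of 1.5-fold, arrays with weak spike-ins or high actin ratios left out, and each array left out.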

Additional observations from a re-analysis of the deposited data

Results flagged for a closer look

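For 7 of 9 tubulin genes, against 21.3% of all rows, the difference between 10 mM APAP and DMSO differed between the 4 times by an F test of the interaction. These 7 are listed for a closer look. TUBB had an adjusted p of 1.7e-08, with log2 differences of -0.44, -0.16, 1.63 and 2.25 at 12, 24, 48 and 72 h. TUBB4B had an adjusted p of 3.8e-08, with 0.25, 0.02, 1.37 and 1.66. TUBA1C had 1e-06, with -0.42, -0.86, 0.39 and 0.89, and TUBA1B had 1.3e-06, with -0.21, -0.19, 1.39 and 1.70. For TUBA1A the test gave 8.4e-05, with -0.26, -0.05, 1.42 and 1.86, and for TUBA4A 0.00066, with 0.22, -0.05, 0.98 and 1.66. TUBB6 had 0.0041, with 1.63, 2.32, 2.84 and 2.16, so its difference was upward at all 4 times and varied in size. Without the DMSO 48 h replicate 1 array the 48 h differences were 1.15 (TUBB), 1.16 (TUBB4B), 0.05 (TUBA1C) and 0.91 (TUBA1B). Those of TUBA1A, TUBA4A and TUBB6 were 1.02, 0.57 and 2.83. The F test then passed for 8 members, these 7 and TUBB2A (adjusted p = 0.01).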

How the results depend on the processing

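Of the 20 counts of tubulin genes called, 13 stayed within 1.5 times the reported count under all 10 alternatives and all 36 fits that left out 1 array. No called value of a member changed sign in any of them. The number of members called at 0.5 mM against DMSO at 48 h went from 4 to 0 with each time fitted alone, to 2 without the weak spike-in arrays and to 2 without the arrays of high actin ratio, and to 2 without the 0.5 mM 48 h replicate 2 array or the DMSO 48 h replicate 1 array. At 72 h it went from 0 to 1 with each time fitted alone, the replicate block, median centring, a second quantile normalization, only rows above the median level and without the weak spike-in arrays, and to 2 with array weights, all lower. It also went to 1 without the 0.5 mM 24 h replicate 1 array or the 10 mM 48 h replicate 2 or 3 array, and to 2 without DMSO 48 h replicate 1. The mean over times went from 3 to 0 with a minimum of 1.5-fold. For 10 mM against 0.5 mM the 3 members at 12 h became 6 with that time fitted alone, 5 among rows above the median level, 6 with array weights, 5 without the weak spike-in arrays, and 5 without DMSO 48 h replicate 1 or 2, and the 8 for the mean over times became 4 with a minimum of 1.5-fold. The 5 members varying over time in 10 mM APAP became 3 without the weak spike-in arrays. Leaving out 1 array gave 3 to 5, 4, 7 to 9 and 9 members for 10 mM against DMSO at 12, 24, 48 and 72 h, 8 for the mean and 7 to 8 for the difference between times. For 0.5 mM against DMSO it gave 0, 0, 2 to 5, 0 to 2, 2 to 4 and 0 to 1 (TUBB, without DMSO 48 h replicate 3). Between doses it gave 2 to 5, 4 to 6, 4 to 8, 9 and 7 to 9, and over time 9 in DMSO, 4 to 6 in 10 mM and 7 to 8 in 0.5 mM APAP. For 10 mM against DMSO the TUBB2A call at 48 h was also lost with that time alone (0.15), array weights (0.1) and the weak spike-in arrays out (0.38). The same call was lost without 10 mM 48 h replicate 1 (0.054) or 3 (0.083). The replicate block changed 3 member calls and no other, each in a different comparison. TUBA1C passed at 48 h for 10 mM against DMSO (0.025) and TUBB2A at 72 h for 0.5 mM against DMSO (0.029). TUBB passed at 12 h for 10 mM against 0.5 mM (0.022). Time courses were not refitted with the block. Of all rows called at 0.5 mM, 1 at 12 h became 4 with the time alone, 0 with the block and 37 with weights, 3 at 24 h became 30, 5 and 19, 652 at 48 h became 5, 1004 and 347, and 144 at 72 h became 299 with the block. Without the weak spike-in arrays the 652 and 144 became 189 and 249, and without high actin ratios 360 and 61. The 16 rows whose 0.5 mM difference varied with time became 51 with weights. A minimum of 1.5-fold cut the 10 mM calls from 5028, 5482, 5899 and 6323 to 2687, 3042, 3360 and 3621. Except where stated, the cause was not tested. Scatter between 3 arrays limits all of these, and values near the array medians limit TUBA4A and TUBB2B.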
